A study of Mus musculus with 12 samples.

Results

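The transcripts of 7 genes of the caveolar coat and its associated proteins were followed in mouse fibroblasts: the caveolins Cav1 and Cav2, the cavins Cavin1, Cavin2 and Cavin3, and the membrane-binding proteins Ehd2 and Pacsin2. They were chosen by gene name, and all 7 were found among the 54447 features of the count table and were kept by the filter on low counts, which left 13608 genes. The 12 libraries came from NIH3T3 cells, a mouse embryonic fibroblast line, that carried a puromycin-selected lentiviral vector with its own Tet activator, so that cells without doxycycline (dox) carried the vector and activator too. In one population dox induced N-VEGF, a histidine-tagged N-terminal stretch of a long VEGF isoform, and in the other NLS-N-VEGF, the same protein with the nuclear localization sequence of Cas9. Each population was sampled without and with dox, which gave 4 groups of 3 libraries. Each population was 1 selected line, with no line that lacked an insert, so an effect of dox itself and one of the induced protein cannot be told apart within a population.

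Caveolae are small flask-shaped pits of the plasma membrane that are abundant in fibroblasts, endothelial cells, adipocytes and muscle. Caveolin-1, the scaffold of the pit, forms oligomers in the membrane, often together with caveolin-2, and the cavins assemble on the cytoplasmic side into a coat in which cavin-1 is needed for the pit to form. Cavin-2 and cavin-3 bind to cavin-1 in this coat, EHD2 is an ATPase at the neck of the pit that holds it at the surface, and PACSIN2 is an F-BAR protein that senses and shapes curved membrane. Caveolae buffer membrane tension and take part in signalling and endocytosis.

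The labels number the libraries of a group and add a suffix whose meaning they do not state, called here suffix a and suffix b. Each group held libraries 1 and 2 of suffix a and a further library 2 of suffix b, and values below are given in this order. Total counts lay between 13549331 and 18982127 per library, so that 3 counts, taken as the lowest level the depth could show, corresponded to 0.158 to 0.221 counts in 1000000 (CPM). The row of the construct insert held 5 to 12 counts in libraries without dox and 35 to 268 with dox. All 9 fibroblast markers exceeded 10 CPM in every library, whereas 3 of 5 endothelial, 3 of 4 adipocyte, 5 of 6 muscle, 3 of 4 epithelial and 3 of 4 macrophage markers stayed under 1 CPM throughout. Library 1 of N-VEGF cells without dox stood apart, with the fewest genes detected (19976, against up to 22889 in the others), and several values below are also given without it.

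Cav1 and Cav2 are neighbours on chromosome 6 (build GRCm38, forward strand). Cav2 (ENSMUSG00000000058) spans chr6:17281185-17289115 and Cav1 (ENSMUSG00000007655) spans chr6:17306335-17341452, with 17219 bases between the end of Cav2 and the start of Cav1. The 250 bases before each start are shown because the levels of these neighbouring genes are compared below. They are from RefSeq (GRCm38.p6), at chr6:17280935-17281184 for Cav2 and chr6:17306085-17306334 for the first of 2 listed starts of Cav1. Capitals mark GGGCGG (a GC box), ACGTG (a form of the core letters of a hypoxia response element) and TATAAA, on either strand.
Cav2: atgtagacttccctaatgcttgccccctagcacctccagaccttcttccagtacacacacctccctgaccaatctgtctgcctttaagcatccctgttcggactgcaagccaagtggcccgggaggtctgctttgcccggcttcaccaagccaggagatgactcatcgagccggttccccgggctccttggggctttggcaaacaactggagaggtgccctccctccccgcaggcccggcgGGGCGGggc
Cav1: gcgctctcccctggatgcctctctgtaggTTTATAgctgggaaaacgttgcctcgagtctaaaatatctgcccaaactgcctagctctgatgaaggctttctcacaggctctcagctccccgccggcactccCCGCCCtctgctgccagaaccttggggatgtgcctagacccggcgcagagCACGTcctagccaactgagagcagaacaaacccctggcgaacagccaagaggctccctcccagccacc
The Cav2 window held 1 GGGCGG, and the Cav1 window held 1 GGGCGG, 1 ACGTG and 1 TATAAA. The window before the second listed start of Cav1 held none of these. GCGTG, another form of the same core that was also searched, occurred in none of the Cav1 and Cav2 windows. Among 32851 windows of the same length, GGGCGG occurred in 32.7%, ACGTG in 16.6%, GCGTG in 28.2% and TATAAA in 12.4%. These matches are letters in a window and not mapped binding sites.

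The other genes lie on other chromosomes or far apart. Cavin1 (ENSMUSG00000004044) spans chr11:100956733-100970887 and Pacsin2 (ENSMUSG00000016664) spans chr15:83375607-83464606, both on the reverse strand. Cavin2 (ENSMUSG00000045954) spans chr1:51289126-51302960 on the forward strand. Ehd2 (ENSMUSG00000074364) at chr7:15946958-15967567 and Cavin3 (ENSMUSG00000037060) at chr7:105480083-105482300 are both on the reverse strand. No exon of 6 of these genes overlapped another gene, but 22.5% of the exon bases of Cavin3 were shared with the antisense gene Gm45667. That gene held 0 to 2 counts per library, and the use of strand in the counting was not stated.

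Divided by exon length, Cavin1 and Cav1 were the most abundant of the 7 transcripts. Cavin1 averaged 231 ± 16.9 CPM per kb (SD, n = 12 libraries) and ranked 174 of 13601 genes with a known length, and Cav1 averaged 181 ± 24.0 and ranked 221. Cavin1 exceeded Cav1 in 11 of 12 libraries, and Cav1 exceeded the next gene in all 12. Cavin3 followed at 72.4 ± 11.6 CPM per kb and exceeded Cav2 in 11 of 12 libraries. Cav2 (51.0 ± 6.52) and Cavin2 (50.3 ± 13.9) overlapped over the 12 libraries. Cav2 was above Cavin2 in 8 of 12 libraries, all of suffix a, and below it in every library of suffix b. Pacsin2 (40.4 ± 2.22) and Ehd2 (38.7 ± 3.39) also overlapped, with Pacsin2 above Ehd2 in 9 of 12. All 7 transcripts were therefore well above the lowest level the depth could show, with at least 1425 counts (Cavin3) in each library.

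**Figure D1:**
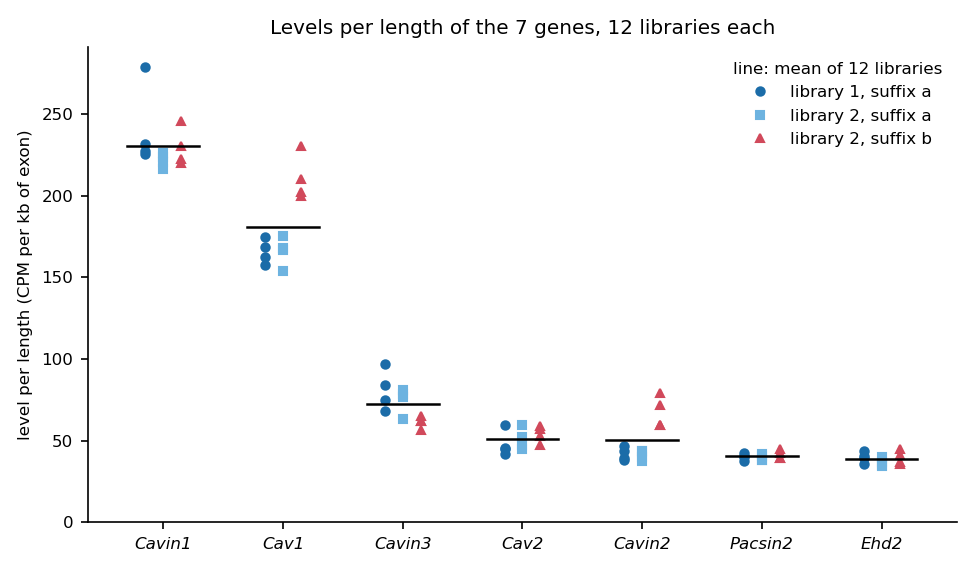
Level per length of the 7 genes (CPM per kb of exon, linear axis from 0), with 1 point per library and a line at the mean of 12 libraries. Cavin1 (mean 231) and Cav1 (mean 181) lie above the other 5 genes, and the Cavin2 points of suffix b lie above those of suffix a.

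The first comparison asked which of these transcripts change when each protein is induced. None of the 7 passed the test in either population (edgeR quasi-likelihood F test over all genes, two-sided, Benjamini-Hochberg threshold 0.05). In NLS-N-VEGF cells 3 of 13608 genes passed (0.0220%), and in N-VEGF cells 5 (0.0367%). Averaged over both populations 8 passed (0.0588%), again with none of the 7. At an unadjusted p under 0.05 there were 318, 201 and 423 genes, of which 1, 0 and 2 were among the 7. The median log2 fold change over the 7 genes was 0.04 in NLS-N-VEGF cells and 0.02 in N-VEGF cells, beside medians of 0.00018 and 0.0022 over all genes tested.

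Cav2 had the largest value of the 7 in NLS-N-VEGF cells. Without dox its level was 151, 151 and 157 CPM, and with dox it was 198, 198 and 191 CPM, so that every library with dox lay above every library without. The group means were 153 ± 3.72 and 196 ± 4.19 CPM (SD, n = 3). The log2 fold change was 0.35 (SE 0.12, 95% interval 0.10 to 0.60), with an unadjusted p of 0.0101 that ranked 50 of 13608 genes and an edgeR adjusted p of 0.9998. With number and suffix as a replicate block, the log2 fold change was 0.35 (SE 0.09), and the edgeR adjusted p of 0.213 also missed the threshold, although 17 genes (0.125%) then passed. Across 21 settings the value stayed between 0.34 and 0.38, with a smallest adjusted p of 0.0971.

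In N-VEGF cells the Cav2 libraries overlapped. Without dox Cav2 stood at 139, 157 and 197 CPM, and with dox at 149.6, 174 and 175 CPM. Its level was higher with dox in 2 of 3 same-labelled pairs, with a log2 fold change of 0.02 (SE 0.12, 95% interval -0.24 to 0.27). Without library 1 of the cells without dox this value was -0.09. The difference between the dox effects of both populations was 0.34 on the log2 scale (SE 0.16, 95% interval -0.02 to 0.69, unadjusted p = 0.0619 and adjusted p = 0.9999 from edgeR). Under the block it was 0.33 (edgeR unadjusted p = 0.0181, adjusted p = 0.9998). No gene passed this test in either fit (0%). At an unadjusted p under 0.05 there were 116 genes (0.852%) without the block and 464 (3.41%) with it. DESeq2 also called 0 genes.

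**Figure D2:**
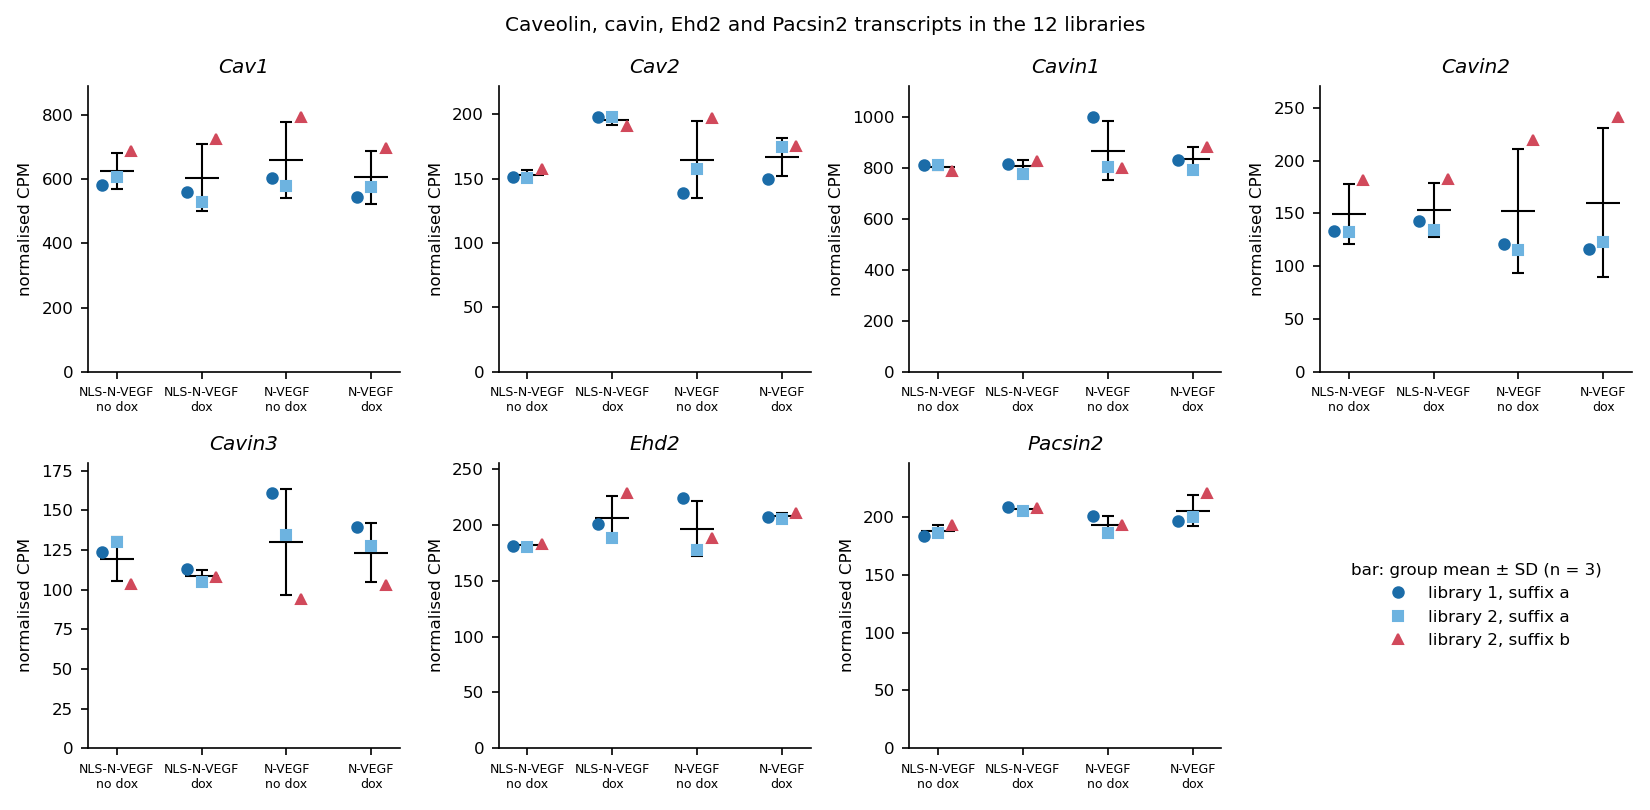
Normalised CPM of each gene (linear axes from 0) in the 4 groups, with 1 point per library, its shape giving library number and suffix, and a black bar at the group mean ± SD (n = 3). Cav2 in NLS-N-VEGF cells lies at 151 to 157 CPM without dox and at 191 to 198 CPM with dox, whereas Cav1 and Cavin2 are highest in the suffix b library of each group.

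Cav1, the neighbour of Cav2 and the scaffold of the pit, overlapped between the conditions in both populations. It stood at 579.8, 604 and 688 CPM without dox and at 559, 529 and 724 CPM with dox in NLS-N-VEGF cells, a log2 fold change of -0.05 (SE 0.15, 95% interval -0.38 to 0.29). In N-VEGF cells it stood at 602, 578 and 794 CPM without dox and at 542, 575 and 697 CPM with dox, lower in all 3 same-labelled pairs, with a log2 fold change of -0.12 (SE 0.15, 95% interval -0.46 to 0.21). The share of all genes lower in all 3 N-VEGF pairs was not computed. Under the replicate block the Cav1 values were -0.06 (SE 0.07) in NLS-N-VEGF and -0.12 (SE 0.07) in N-VEGF cells.

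The count of Cav2 per 100 counts of Cav1 does not depend on library scaling. In NLS-N-VEGF cells it was 26.1, 24.9 and 22.9 without dox and 35.4, 37.4 and 26.4 with dox. In N-VEGF cells it was 23.1, 27.2 and 24.9 without dox and 27.6, 30.4 and 25.2 with dox. The ratio was higher with dox in all 3 pairs of each population, by the least in the suffix b libraries of N-VEGF cells. It was formed after the values were seen and was not tested.

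**Figure D3:**
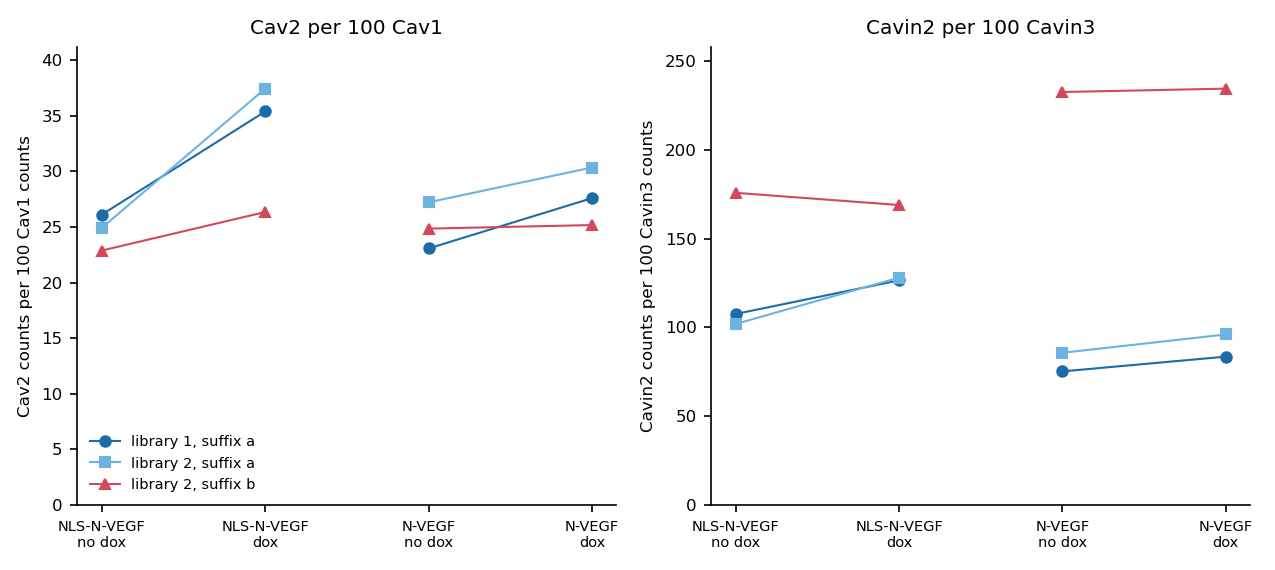
Counts of Cav2 per 100 counts of Cav1 (left) and of Cavin2 per 100 counts of Cavin3 (right) on linear axes from 0, with lines joining the same-labelled libraries without and with dox. The Cav2 to Cav1 ratio is higher with dox along all 6 lines, and the Cavin2 to Cavin3 ratio of the suffix b libraries lies at 169 to 234, above the others at 75.2 to 128.

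Among the cavins no value with dox came near the threshold. Cavin1, the core of the cavin coat, stood at 809, 809.95 and 788 CPM without dox and at 814, 776 and 825 CPM with dox in NLS-N-VEGF cells, with a log2 fold change of 0.0042 (SE 0.09, 95% interval -0.20 to 0.21). In N-VEGF cells it stood at 999.5, 802 and 797 CPM without dox and at 829, 791 and 882 CPM with dox, with a log2 fold change of -0.05 (SE 0.09), and 0.06 without the library that stood apart, its highest. Cavin2 had log2 fold changes of 0.04 (SE 0.30, 95% interval -0.61 to 0.69) in NLS-N-VEGF and 0.08 (SE 0.30, 95% interval -0.57 to 0.73) in N-VEGF cells, the widest intervals of the 7, and the N-VEGF value was -0.06 without the library that stood apart. Under the replicate block, which holds the suffix, the Cavin2 intervals were narrower. The values were then 0.04 (SE 0.11, 95% interval -0.19 to 0.27) and 0.06 (SE 0.11, 95% interval -0.17 to 0.29). In NLS-N-VEGF cells Cavin3 stood at 124, 130.3 and 103 CPM without dox and at 113, 105 and 108 CPM with dox. Its N-VEGF libraries held 161, 135 and 94.5 CPM without dox and at 139.5, 128 and 103 CPM with dox. Cavin3 had log2 fold changes of -0.13 (SE 0.17) and -0.07 (SE 0.17), and was lower with dox in 2 of 3 pairs of each population, but its N-VEGF value was 0.11 without the library that stood apart.

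The neck protein Ehd2 and the curvature protein Pacsin2 were each higher with dox in all 3 NLS-N-VEGF pairs. So were Cav2 and, by only 0.0059 to 0.10 on the log2 scale, Cavin2. The share of all genes with this pattern was not computed, so these pairs are not read as a result about the 7 genes. Ehd2 stood at 182, 180.5 and 183 CPM without dox and at 201, 189 and 228 CPM with dox, with a log2 fold change of 0.18 (SE 0.10, 95% interval -0.03 to 0.39). This Ehd2 value was 0.099 without the dox library of suffix b and 0.097 with suffix a only. Pacsin2 stood at 184, 186 and 193 CPM without dox and at 209, 205 and 208 CPM with dox, with a log2 fold change of 0.14 (SE 0.07, 95% interval -0.02 to 0.30). The libraries of these genes did not overlap between conditions, but neither passed the test (edgeR unadjusted p = 0.0918 and 0.0771). Under the replicate block Ehd2 was at 0.18 (95% interval 0.0023 to 0.35, edgeR unadjusted p = 0.0474, adjusted p = 0.678). Pacsin2 was then at 0.14 (95% interval -0.0025 to 0.29, edgeR unadjusted p = 0.0536, adjusted p = 0.703). Beside these, 989 genes (7.27%) had an edgeR unadjusted p under 0.05 in NLS-N-VEGF cells under the block. In N-VEGF cells Ehd2 stood at 224, 178 and 188 CPM without dox and at 207, 205 and 211 CPM with dox, a log2 fold change of 0.08 (SE 0.10) that was 0.18 without the library that stood apart. Pacsin2 stood there at 201, 186 and 193 CPM without dox and at 196, 199.67 and 221 CPM with dox, a log2 fold change of 0.09 (SE 0.07). Each was higher with dox in 2 of 3 pairs, and the libraries overlapped. Averaged over the populations, the log2 values were 0.18 for Cav2 (SE 0.08, edgeR unadjusted p = 0.0433), 0.11 for Pacsin2 (SE 0.05, edgeR unadjusted p = 0.0463) and 0.13 for Ehd2 (SE 0.07), and none passed after adjustment. Under the block the edgeR unadjusted p-values of these averages were 0.00878, 0.0298 and 0.0409, and again none passed after adjustment. For this average under the block, 1266 of 13608 genes (9.3%) had an edgeR unadjusted p under 0.05.

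In NLS-N-VEGF cells 3 of the 7 genes (Cav2, Ehd2 and Pacsin2) therefore had all libraries with dox above all libraries without, a pattern seen in 4.78% of the 13608 genes. The study names Cav2 among the genes it chose on these samples, so the place of Cav2 in this count is not independent evidence, and the count was not tested. The study chose genes by fold change and adjusted p, and reports real-time RT-PCR of the trends of genes it names. In the present fit Cav2 had a log2 fold change of 0.35 and did not pass (edgeR adjusted p = 0.9998). In N-VEGF cells none of the 7 had all libraries with dox above all without, beside 2.13% of all genes. Under the replicate block, 15 genes (0.110%) passed in N-VEGF cells and 77 (0.566%) on average over the populations, again with none of the 7.

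**Figure D4:**
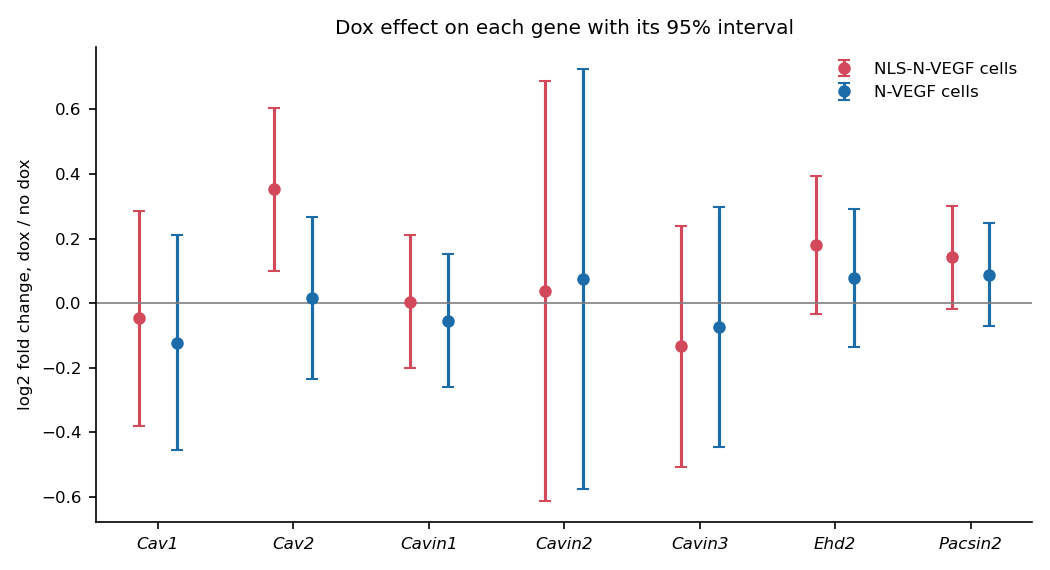
Log2 fold change with dox against without dox for each gene (points) with its 95% interval (bars), in NLS-N-VEGF and N-VEGF cells (3 libraries per group). These intervals are from the fit without the replicate block. Every interval shown includes 0 except that of Cav2 in NLS-N-VEGF cells (0.10 to 0.60), whose adjusted p is 0.9998.

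Between the populations none of the 7 genes passed the test with dox (0% of all genes passed) or without dox (0%). With dox, the Cav2 level of NLS-N-VEGF cells exceeded that of N-VEGF cells by 0.23 on the log2 scale (SE 0.12, 95% interval -0.02 to 0.48, edgeR unadjusted p = 0.0674), and under the block by 0.24 (edgeR unadjusted p = 0.0169, adjusted p = 0.9919), where 2 genes (0.0147%) passed. The other 6 genes lay between -0.18 (Cavin3) and 0.01 (Pacsin2). Without dox all 7 genes lay below 0, between -0.12 (Cavin3) and -0.03 (Cavin2), with a median of -0.10 beside -0.0046 over all genes tested, but without the library that stood apart Cavin1 was at 0.0054 and Cavin3 at 0.06. At an unadjusted p under 0.05 there were 160 genes with dox and 82 without, and under the block 621 and 499. DESeq2 called 0 in both comparisons. Within suffix a, Cavin2 was instead above 0 in NLS-N-VEGF cells, by 0.21 with dox and 0.17 without.

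The differences of the 7 genes that passed the test were between the label suffixes. With the group means held, Cavin2 and Cav1 were higher and Cavin3 was lower in the suffix b libraries, and the other 4 genes did not pass the test. A share of 3 in 7 is close to the background, since 6207 of 13608 genes (45.6%) passed, 3015 higher and 3192 lower. What the suffix stands for was not stated in the labels.

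Cavin2, which binds lipids and cavin-1 in the coat, differed the most. In the 8 libraries of suffix a it had a lowest value of 115, a median of 128 and a highest value of 143 CPM, and in the 4 libraries of suffix b it stood at 182, 183, 219.6 and 242 CPM. The log2 fold change was 0.70 (SE 0.08, adjusted p = 5.38e-06 from edgeR). Cav1 ranged from 529 to 604 CPM (median 577) with suffix a and from 688 to 794 CPM with suffix b, a log2 fold change of 0.34 (SE 0.05, adjusted p = 7.76e-05 from edgeR). For both genes all 4 libraries of suffix b lay above all 8 of suffix a, as did 13.1% of all genes.

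Cavin3, a partner of cavin-1 that also binds protein kinase C delta, moved the other way. It ranged from 105 to 161 CPM (median 129) with suffix a and from 94.5 to 108 CPM with suffix b, and these ranges overlapped. Its log2 fold change was -0.33 (SE 0.08, adjusted p = 0.00342 from edgeR). The log2 fold change of Cav2 was 0.14 (SE 0.07, adjusted p = 0.115 from edgeR), and among the alternatives run it passed only when the dox-treated NLS-N-VEGF library of suffix b was left out (0.20, adjusted p = 0.0432 from edgeR). It was 0.035 (adjusted p = 0.688 from edgeR) without the suffix b library of untreated N-VEGF cells. Pacsin2 (0.06, SE 0.05), Ehd2 (0.05, SE 0.06) and Cavin1 (-0.0083, SE 0.07) lay near 0.

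Within groups, the suffix b level of Cavin2 was, for NLS-N-VEGF cells, 1.37 times the mean of the suffix a libraries when dox was absent and 1.32 times when it was present. In N-VEGF cells these ratios were 1.86 and 2.02. The difference of the suffix effects between populations, a test added after the values were seen, was 0.53 on the log2 scale for Cavin2 (SE 0.09, 95% interval 0.33 to 0.73). Its unadjusted p of 5.1e-05 ranked 3 of 13608 genes, but its edgeR adjusted p of 0.179 missed the threshold, and no gene passed (0%, with 1057 at an unadjusted p under 0.05). Without library 1 of N-VEGF cells without dox it was 0.56 with an edgeR adjusted p of 0.0028, and 31 genes passed. With no filter on low counts it was 0.52 with an edgeR adjusted p of 0.0112, and 81 genes passed. Across the 15 alternatives run the Cavin2 value lay between 0.47 and 0.58, and it passed in no other of them.

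For Cav1 the ratios without and with dox were 1.16 and 1.33 in NLS-N-VEGF cells, and 1.34 and 1.25 in N-VEGF cells. The ratios of Cavin3 were 0.814 and 0.992 in NLS-N-VEGF cells and 0.639 and 0.771 in N-VEGF cells. The difference between populations was -0.36 (SE 0.13, edgeR adjusted p = 0.616) for Cavin3 and 0.26 (SE 0.12, edgeR adjusted p = 0.641) for Cav2, and neither passed. Counts of Cavin2 per 100 counts of Cavin3 ranged from 75.2 to 128 in the suffix a libraries and from 169 to 234 in the suffix b libraries.

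**Figure D5:**
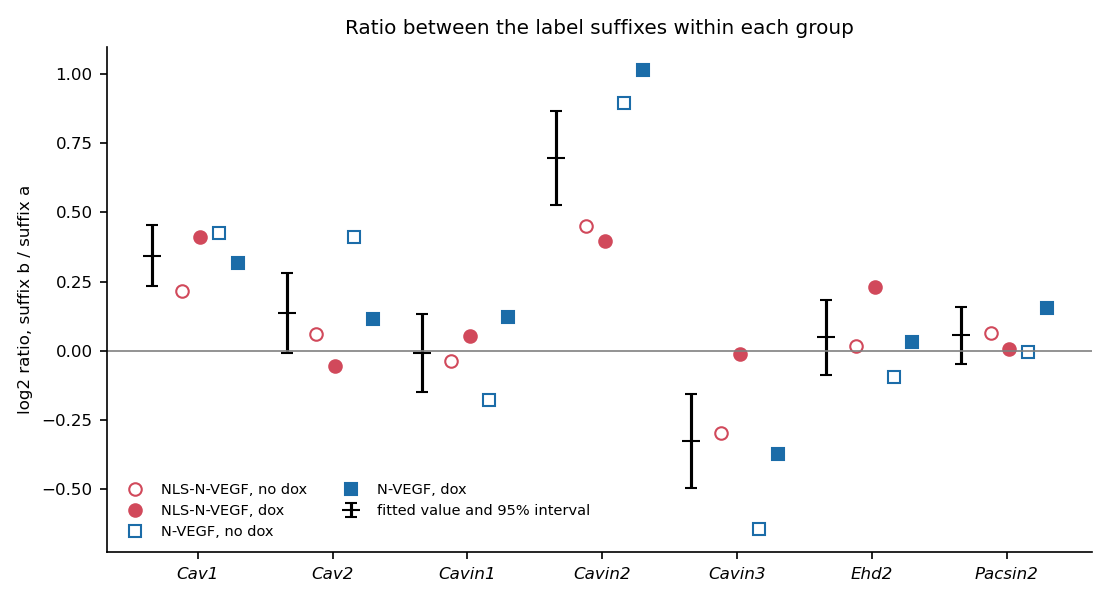
Log2 ratio of the suffix b library to the mean of both suffix a libraries in each of the 4 groups (points), beside the fitted value over all groups with its 95% interval (black). Cavin2 (fitted 0.70) and Cav1 (0.34) lie above 0 and Cavin3 (-0.33) below 0, and the Cavin2 points of N-VEGF cells lie above those of NLS-N-VEGF cells.

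Marker genes of fibroblasts also differed between the suffixes. Pdgfra (log2 fold change -1.32) and Col3a1 (-1.22) were lower and Thy1 (0.53) was higher in the suffix b libraries. They were picked for their large differences, and 45.6% of all genes passed the suffix test. The summed level of the 9 fibroblast markers overlapped, at 11222 to 14170 CPM with suffix a and 11562 to 13146 CPM with suffix b. The summed adipocyte markers were 0.251 to 0.943 CPM and 1.01 to 2.16 CPM, with Adipoq at 0 in 8 of 12 libraries. On average most of this sum was Fabp4 (mean 0.768 CPM, 2 to 33 counts per library). The summed macrophage markers were 2.81 to 4.09 CPM and 5.36 to 6.12 CPM, most of it Cd68, with Adgre1 at 0 in 11 of 12 libraries. Among single genes kept by the filter, 13.1% had all libraries of suffix b above all of suffix a. The part of these shifts in the values of Cav1, Cavin2 and Cavin3 was not tested.

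Other genes of the pathway were read from 3 lists. The muscle caveolin Cav3 had 0 counts in all 12 libraries, and Pacsin1 stayed under 1 CPM. None of the 5 tested paralogs passed with dox or between populations, and Ehd4 (log2 fold change -0.19) and Ehd3 (-0.35) were lower with suffix b. Among 13 tested partners and regulators, Src, a kinase that phosphorylates caveolin-1, rose with dox on average over the populations by 0.53 on the log2 scale (SE 0.08, edgeR adjusted p = 0.0224). Under the block Src also passed in NLS-N-VEGF cells (0.56) and in N-VEGF cells (0.50), and the difference of these values was 0.06 (edgeR adjusted p = 0.9998). The study had chosen Src on these samples as induced in NLS-N-VEGF cells, so its direction there is not independent evidence. By its own thresholds the study left out genes induced with dox in N-VEGF cells. The rise of Src in N-VEGF cells was therefore not selected for.

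With suffix b, 6 of the 13 partners passed. The actin crosslinker Flna, which links caveolae to stress fibres, was higher (0.28), and Insr (-0.45), Itsn2 (-0.37), Abl1 (-0.35), Itsn1 (-0.31) and Flot1 (-0.19) were lower. Of 15 genes of the clathrin coat, the other main coat of endocytic pits, none passed with dox, and 7 passed with the suffix. Cltb (0.48) and Epn1 (0.23) were higher, and Fcho1 (-2.52), Hip1 (-0.44), Cltc (-0.24), Epn2 (-0.21) and Ap2b1 (-0.20) were lower. Fcho1 did not exceed 0.69 CPM in any library. The shares of these lists that passed, 6 of 13 and 7 of 15, were close to the 45.6% of all genes.

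The genes whose pattern was most like Cav1 over the 12 libraries were Aifm1 (Pearson r = 0.95), Plpp1 (0.95) and Pdrg1 (0.94), among the 8922 genes that averaged 10 CPM or more. For Cav2 they were Carnmt1 (0.96), 1190002N15Rik (0.93) and Man1a (0.93). With the mean of each suffix removed, Fgf10 (0.83), Btbd11 (0.82) and Tbck (0.82) were most like Cav1, and Carnmt1 (0.97), Mtdh (0.96) and Trove2 (0.95) most like Cav2. Among the 7 genes, Cav1 and Cavin2 had r = 0.86 over the 12 libraries and 0.06 with the suffix means removed. Cav2 and Cavin3 had r = -0.78 and -0.80, and Cav1 and Cav2 had r = 0.26 and -0.19. Cavin2 and Cavin3 had r = -0.81 and -0.54, Cavin1 and Cavin3 0.54 and 0.74, and Ehd2 and Pacsin2 0.70 and 0.68. The library that stood apart held the highest Cavin3 (161 CPM) and the lowest Cav2 (139 CPM), and r was not computed without it. These values describe 12 libraries that share groups, suffixes and depth.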

How the data were processed

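RNA from 12 libraries was sequenced as single reads. The authors prepared TruSeq libraries, trimmed reads with Trim Galore and cutadapt 1.10, aligned them to GRCm38 with TopHat2 2.1.0 and Bowtie2 2.2.6 and counted reads per gene with HTSeq 0.6.1 (versions from the submitters' processing notes). The deposited values were raw counts, with no normalization by the authors. The authors tested with DESeq2 1.18.1.

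Genes were filtered with filterByExpr by group, and counts were scaled by TMM and tested in edgeR 4.0.16 (R 4.3.3) with 1 mean per group over all 12 libraries. The common biological coefficient of variation was 15.5% in this fit and 7.86% with the replicate block. In this fit 2.34% of genes in NLS-N-VEGF cells and 1.48% in N-VEGF cells had an edgeR unadjusted p under 0.05 with dox. A gene that did not pass is therefore not shown to be unchanged. The suffix was tested with the group means held. The test was run on simulated counts with 200 changed genes, log2 changes of 1 or 2, 1 common spread and no replicate blocks. These settings do not speak to the smaller changes reported here. DESeq2 1.42.0, RLE scaling, 2 other filters, a replicate block, a suffix covariate, subsets of libraries and leaving out each library were tried as alternatives. CPM used TMM-scaled totals, likeness used log2(CPM + 2), and intervals of CPM floors cover counting error only. Gene positions matched the GENCODE annotation of GRCm38. RefSeq promoters matched 6 of the 7 genes.

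Number and suffix, both from the labels, pair libraries across groups in 3 blocks. Deviations from group means correlated at 0.40 to 0.83 (mean 0.59) in all 18 same-labelled pairs, and at -0.763 to 0.678 (mean -0.247) in 36 others (12058 genes). Because the deviations within a group cancel, a positive mean in the same-labelled pairs largely fixes a negative mean in the others. The 12 same-labelled pairs of suffix a lay at 0.40 to 0.686, a range that overlaps that of the others. No 2 libraries of a group agreed within sampling noise. Separate cultures are not stated, so p-values measure the spread between these libraries, which may be technical.

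The 7 genes, the lists and the tests were chosen with earlier results of these data known. All 7 genes are named in every comparison. From the lists, genes that passed were named, and from the markers those with the largest suffix differences, chosen after their values were seen.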

Additional observations from a re-analysis of the deposited data

How the results depend on the processing

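With DESeq2, no filter, the replicate block, the suffix covariate, suffix a only and only the compared groups, the genes called with dox in NLS-N-VEGF cells were 12, 53, 17, 15, 109 and 0 (3 in the reported fit), and in N-VEGF cells 8, 36, 15, 13, 16 and 1 (5 in the reported fit). On average over the populations the first 5 of these settings gave 21, 77, 77, 73 and 135 genes (8 reported). No filter and suffix a only gave 1 and 4 genes for the difference of the dox effects, 9 and 11 between populations with dox and 10 and 5 without dox. The block and the covariate gave 2 genes each between populations with dox. No filter gave 81 genes for the difference of the suffix effects, with 1 of the 7 genes (Cavin2) called. Leaving out 1 library gave 0 to 3, 1 to 7 and 5 to 9 genes with dox in NLS-N-VEGF cells, in N-VEGF cells and on average, and 0 to 31 genes with 0 to 1 of the 7 for the difference of the suffix effects. The causes were not tested. The replicate block changed no call among the 7 genes, and the calls of Cav1, Cavin2 and Cavin3 with the suffix passed under all alternatives run.

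Values near 0 changed sign, and none of those values passed the test. With suffix a only, log2 values were -0.034 for Cavin1 with dox in NLS-N-VEGF cells, -0.038 for Cav1 and 0.046 for Cavin2 in the difference of the dox effects, 0.21 for Cavin2 between populations with dox, and 0.022 for Cav2 and 0.17 for Cavin2 without dox. Between populations with dox, Cav1 was 0.0025 with DESeq2, 0.0026 with RLE scaling, 0.0076 with no filter, 0.0051 with 10 counts in every library and 0.0021 with only the compared groups. Cavin2 under the block and the covariate was 0.0012 and 0.0018 with dox, and 0.022 and 0.022 without dox. Cavin1 with the suffix was 0.011 with 10 counts in every library and 0.041 with the libraries numbered 2.

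Leaving out 1 library also changed signs, within these ranges. With dox in NLS-N-VEGF cells they were -0.20 to 0.042 for Cav1, -0.015 to 0.032 for Cavin1 and -0.11 to 0.20 for Cavin2. In N-VEGF cells they were -0.24 to 0.012 for Cav1, -0.092 to 0.15 for Cav2, -0.13 to 0.060 for Cavin1, -0.35 to 0.42 for Cavin2 and -0.28 to 0.11 for Cavin3. On average they were -0.067 to 0.032 for Cavin1 and -0.15 to 0.23 for Cavin2. For the difference of the dox effects they were -0.073 to 0.19 for Cav1, -0.056 to 0.13 for Cavin1, -0.38 to 0.38 for Cavin2, -0.24 to 0.14 for Cavin3 and -0.0026 to 0.18 for Ehd2. Between populations with dox they were -0.15 to 0.11 for Cav1, -0.25 to 0.36 for Cavin2, -0.093 to 0.055 for Ehd2 and -0.019 to 0.066 for Pacsin2. Without dox they were -0.16 to 0.066 for Cav1, -0.21 to 0.034 for Cav2, -0.18 to 0.0054 for Cavin1, -0.19 to 0.32 for Cavin2 and -0.32 to 0.059 for Cavin3. With the suffix they were -0.056 to 0.042 for Cavin1 and -0.017 to 0.090 for Ehd2. For the difference of the suffix effects they were -0.062 to 0.16 for Cav1, -0.19 to 0.10 for Cavin1 and -0.039 to 0.11 for Pacsin2.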
